A study of Mus musculus with 84 samples.

Results

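Acetylation of lysine 27 of histone H3 (H3K27ac) was profiled by ChIP-seq in the colon epithelium of high-fat fed recipients of transplanted bacteria, and the regions described here were found by merging the peak lists of 5 libraries. The recipients were male C57BL/6 mice raised germ-free, fed a high-fat diet (HFD), and gavaged with stool suspensions from male donors. In the HFDHFB group (2 libraries) the donors had themselves been on the high-fat diet (high-fat bacteria, HFB), and in the HFDLFB group (3 libraries) on the low-fat diet (low-fat bacteria, LFB). Both groups therefore shared strain, sex, diet, germ-free origin and gavage, and differed in the donor's diet. These 5 libraries are among 84 samples of the series. For comparison, 6 lists came from low-fat fed recipients of the same bacteria (LFDHFB and LFDLFB) and 6 from conventional males kept on either diet for long.

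H3K27ac is deposited by the acetyltransferases p300 and CBP on nucleosomes beside active enhancers and promoters. H3K4me1 marks enhancers whether or not they are active, so both marks on one region are read as an active enhancer. In colonic epithelium many enhancers are bound by HNF4α, a nuclear receptor that keeps enterocyte genes for absorption and lipid handling in use. Gut bacteria reach this tissue through short-chain fatty acids, bile acids and cell wall components.

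Peaks that overlapped by at least 1 bp over the 5 lists made 61972 merged regions. Both HFDHFB libraries and no HFDLFB library had a peak in 576 of them (0.929%), called HFDHFB only below. All 3 HFDLFB libraries and no HFDHFB library had a peak in 467 (0.754%), called HFDLFB only. A peak in all 5 libraries was present in 26804 regions (43.3%). Since HFDHFB only asks for 2 libraries and HFDLFB only for 3, the sizes of the 2 sets cannot be compared directly.

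As examples of the few one-group regions with an HNF4α site, 200 bases of mm9 (plus strand) are given for 5. These carried an HNF4α core inside an HNF4α peak of long-term diet males. Capitals mark the core (CAAAGGTCA or CAAAGTCCA, on either strand). The 5 were kept because it lay within 20 bp of the centre of the nearest HNF4α peak (0 to 19 bp), a limit set after the values were seen. In the regions left out by this limit the core lay 656 to 1273 bp away. The regions nearest to Mosc1 (chr1:186634601-186637000) and Spata6 (chr4:111409801-111412200) were HFDHFB only, and those nearest to Klf6 (chr13:6098001-6102200), Rell1 (chr5:64345001-64348600) and Rybp (chr6:100108801-100111200) were HFDLFB only.
Mosc1, chr1:186635672-186635871: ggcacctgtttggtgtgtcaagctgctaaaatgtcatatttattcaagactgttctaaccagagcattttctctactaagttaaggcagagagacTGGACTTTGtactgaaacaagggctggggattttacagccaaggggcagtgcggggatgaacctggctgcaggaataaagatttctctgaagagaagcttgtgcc
Spata6, chr4:111410279-111410478: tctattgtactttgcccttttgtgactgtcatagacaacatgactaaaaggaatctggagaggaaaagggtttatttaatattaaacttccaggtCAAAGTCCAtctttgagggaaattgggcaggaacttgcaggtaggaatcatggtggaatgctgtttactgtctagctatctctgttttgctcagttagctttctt
Klf6, chr13:6101009-6101208: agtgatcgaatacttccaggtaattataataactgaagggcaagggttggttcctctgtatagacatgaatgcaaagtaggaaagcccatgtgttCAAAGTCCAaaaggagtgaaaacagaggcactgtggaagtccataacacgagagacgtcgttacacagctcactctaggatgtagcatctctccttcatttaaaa
Rell1, chr5:64346285-64346484: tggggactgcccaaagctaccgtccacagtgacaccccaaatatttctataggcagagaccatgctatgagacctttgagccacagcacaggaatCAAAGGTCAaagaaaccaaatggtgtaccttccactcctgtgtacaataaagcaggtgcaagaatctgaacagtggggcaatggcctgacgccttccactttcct
Rybp, chr6:100109913-100110112: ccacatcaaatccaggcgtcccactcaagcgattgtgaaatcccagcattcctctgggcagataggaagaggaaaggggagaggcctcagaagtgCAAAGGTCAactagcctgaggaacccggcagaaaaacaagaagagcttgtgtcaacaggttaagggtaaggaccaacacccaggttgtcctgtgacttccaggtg
The Mosc1 region lay 0.609 kb upstream of that gene's start and the Spata6 and Rell1 regions lay in introns, whereas the Klf6 and Rybp regions were intergenic and 239 and 127 kb from the nearest start. Peak length in the Klf6 region was 3400, 3000 and 2200 bp in the 3 HFDLFB libraries. In the Mosc1 region it was 1400 and 1600 bp in the HFDHFB libraries. An HNF4α peak in at least 2 of 4 lists together with a core was held by 17 of 576 HFDHFB only and 13 of 467 HFDLFB only regions. The 2 together were not counted over all merged regions, so these counts cannot be called high or low.

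The number of peaks did not separate the groups. HFDHFB libraries held 42486 and 51873 peaks, and HFDLFB libraries 48889, 46138 and 49147. The means were 47179.5 ± 6638 (SD, n = 2) and 48058 ± 1668 (SD, n = 3), a difference smaller than the spread within HFDHFB (two-sided exact permutation test, p = 0.8, where 2 libraries against 3 cannot go below 0.2). Replicate 1 of HFDHFB had the fewest peaks of the 5 and replicate 2 the most. The covered genome was 119 ± 18.01 Mb (SD, n = 2) and 120 ± 4.67 Mb (SD, n = 3; exact permutation test, p = 1). The similarity of libraries overlapped within and between groups. The covered bases shared by a pair, as a fraction of those covered by either, was 0.587 for the HFDHFB pair, 0.605 to 0.613 for the 3 HFDLFB pairs and 0.593 to 0.612 for the 6 mixed pairs. The lists hold no read counts, so the depth of these libraries is unknown, and the absence of a peak cannot be told apart from low depth.

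**Figure D1:**
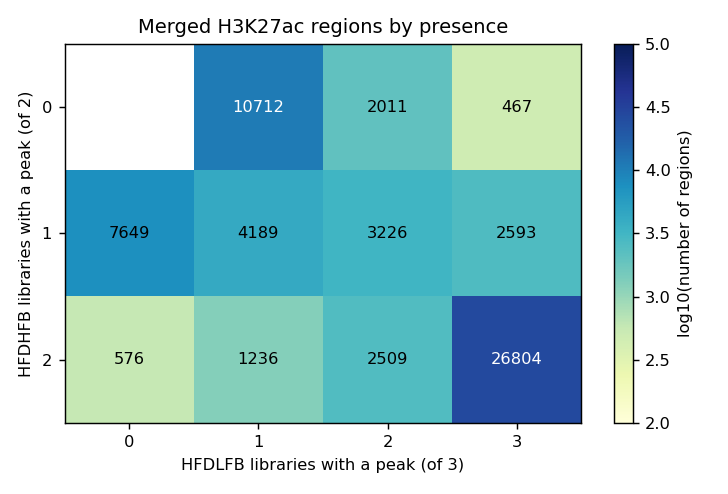
Number of merged H3K27ac regions by the number of HFDHFB libraries (rows, of 2) and HFDLFB libraries (columns, of 3) with a peak, coloured by log10 of the count. The 26804 regions present in all 5 libraries and the 7649 and 10712 regions of a single library far exceed the 576 and 467 of the 2 one-group classes.

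The lists carried the marks of epithelium. All 8 epithelial markers (Epcam, Krt8, Krt18, Krt19, Krt20, Vil1, Cdh17 and Cdx2) had a peak over a transcription start site (TSS) in every library, against 51.2 to 53.1% of protein-coding genes. None of the 8 leukocyte, 8 fibroblast or 8 mesothelial markers had one in any library, while 2 of 8 adipocyte, 1 to 2 of 8 smooth muscle, 0 to 2 of 8 endothelial and 0 to 2 of 8 enteric neuron and glia markers did. The nearest genes of one-group regions included 1 fibroblast marker (Twist2) and 1 adipocyte marker (Lipe), both HFDLFB only.

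One-group regions were mostly far from promoters. Of the HFDHFB only regions, 11.98% had their centre within 5 kb of a protein-coding TSS (69 of 576, 95% exact binomial interval 9.44 to 14.9%), and of the HFDLFB only regions 22.3% (104 of 467, 18.6 to 26.3%). Over all merged regions the share was 27.9%, and over regions of all 5 libraries 42.9%. The intervals of the 2 sets, which cover counting error only, did not overlap, and that of HFDHFB only lay further below the share of all regions. Within 1 kb the shares were 2.95% (17 regions) and 11.8% (55 regions), against 14.7% of all merged regions. Regions found in 2 or 3 libraries of mixed groups had 15.6% within 5 kb, and those of 2 HFDLFB libraries alone 19.0%. The median distance to a TSS was 23.5 kb for HFDHFB only, 17.999 kb for HFDLFB only and 14.9 kb for all. HFDHFB only regions were also narrower (median 1600 against 2000 bp) and lower in GC content (median 43.5% against 45.9%), and the part of width, GC content and the number of libraries required in the TSS shares was not tested.

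**Figure D2:**
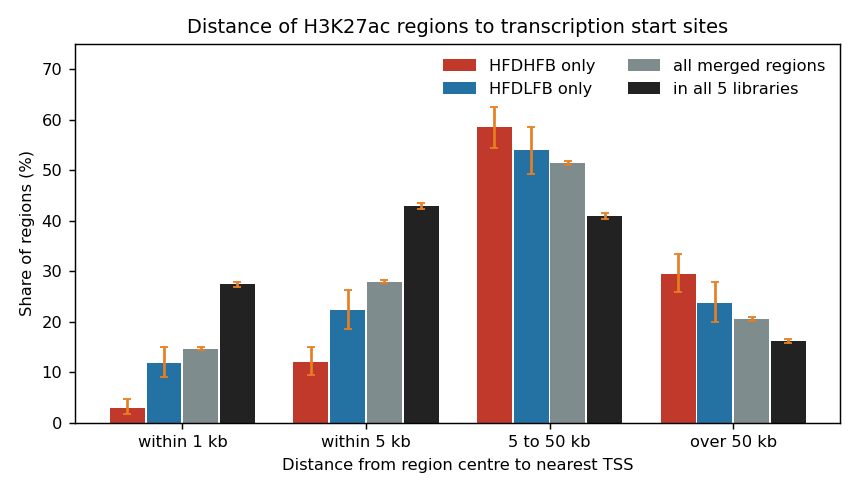
Share of regions (%) by the distance from the region's centre to the nearest protein-coding TSS for HFDHFB only, HFDLFB only, all merged regions and regions in all 5 libraries. Error bars are 95% exact binomial intervals, and within 5 kb the shares were 11.98%, 22.3%, 27.9% and 42.9%.

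Most merged regions, one-group or not, carried the enhancer mark in mice of another experiment. H3K4me1 peaks of long-term diet males (at least 1 of 6 lists) overlapped 91.8% of HFDHFB only and 96.4% of HFDLFB only regions, against 90.9% of all merged regions. All 6 lists held a peak over 69.4% and 82.9%, against 75.7% of all. The share with HNF4α was lower than that of all merged regions in both sets. HNF4α peaks of the same males (at least 2 of 4 lists) overlapped 13.4% of HFDHFB only regions (10.7 to 16.4%) and 15.0% of HFDLFB only regions (11.9 to 18.6%), against 26.9% of all. Regions found in 2 or 3 libraries of mixed groups had 13.1%, so the low share was not particular to one-group regions. Wider regions overlap more peaks, and the median width of all merged regions was 2200 bp.

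Motif cores were searched on both strands of each whole region, where no core contains another. The HNF4α core given above was present in 8.51% of HFDHFB only and 7.92% of HFDLFB only regions, against 11.8% of all merged regions. The AP-1 core (TGAGTCA), the site of Jun and Fos dimers, was present in 29.9% and 33.4%, against 40.0%. The ATF/CRE core (TGACGTCA), which ATF and CREB factors bind, was present in 1.39% and 1.93%, against 2.90%. All 3 were thus less frequent per region than over all merged regions, which were wider. In regions found in 2 or 3 libraries of mixed groups the 3 shares were 8.75%, 33.8% and 1.44%. The CDX2 core (GCAATAAA or GCCATAAA), a site of the intestinal homeobox factor, was present in 18.4% and 16.9%, against 19.8%. The KLF core (GGGTGTGG), a site of Krüppel-like factors, was present in 17.2% and 19.1%, against 24.2%. In the central 600 bp, where width plays no part, this order turned: the shares with an HNF4α core were 3.30% and 3.64%, against 3.22% of all, and those with an AP-1 core 13.4% and 13.3%, against 12.6%. The share of all merged regions then lay inside the interval of both sets for all 5 cores, except for KLF in HFDHFB only regions (9.20%, 6.97 to 11.9%, against 6.83%). Per kb of sequence, CDX2 cores numbered 0.118 and 0.0941, against 0.0794 over all merged regions and 0.0959 over those of mixed groups. For HNF4α the densities were 0.0531 and 0.0423, against 0.0432 over all, and for AP-1 0.217 and 0.221, against 0.208. For ATF/CRE they were 0.00802 and 0.00952, against 0.00987, and for KLF 0.108 and 0.108, against 0.108.

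The widest HFDHFB only region, 5600 bp in an intron 51.2 kb from the nearest TSS, that of Erbb2ip (chr13:104656401-104662000), had 5000 and 4400 bp of peak in the 2 HFDHFB libraries and none in the 3 HFDLFB libraries. It directly adjoined an HFDLFB peak (gap of 0 bp), and was separate only because merging asked for 1 bp of overlap. A peak of the other group lay within 200 bp of 34 HFDHFB only and 25 HFDLFB only regions. Erbb2ip encodes erbin, a scaffold of the basolateral membrane. A 4400 bp region lay 1.55 kb upstream of Hoxd10 (chr2:74525401-74529800), a homeobox gene of posterior patterning, with 3400 and 4400 bp of peak. The 4000 bp region nearest to Cldn15 (chr5:137450401-137454400), 8.66 kb from its start, had 2600 and 2000 bp of peak. Claudin-15 forms paracellular cation channels in gut epithelium, and no other male library, on either diet, had a peak in that region. The same held for the 3600 bp region 119 kb from the start of Magi3, a junction scaffold (1800 and 2200 bp). Further regions among the 10 widest lay nearest to Mast2, Jmjd1c, Kcnj2, Ercc4 and Hao2.

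Among HFDLFB only regions the widest, 4800 bp, lay 5.27 kb upstream of Slc25a24 (chr3:108918401-108923200), a mitochondrial carrier of ATP-Mg and phosphate, and had 2200, 3800 and 800 bp of peak in the 3 HFDLFB libraries. The 4600 bp region in an intron 62.7 kb from the nearest TSS, that of Asap2 (chr12:21178201-21182800), had 3000, 3800 and 2400 bp, and adjoined an HFDHFB peak (gap of 0 bp). A 4200 bp region lay 1.92 kb inside Sec23a (chr12:60104201-60108400), which encodes a coat protein of vesicles leaving the endoplasmic reticulum, with 2000, 1000 and 3000 bp. The Klf6 region shown above, 4200 bp, was the one nearest to a transcription factor of the Krüppel-like family. The remaining 6 of the 10 widest lay nearest to Slc46a2, Zpld1, Atp10b, Itgb1bp1, Sgsm3 and Pigt.

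**Figure D3:**
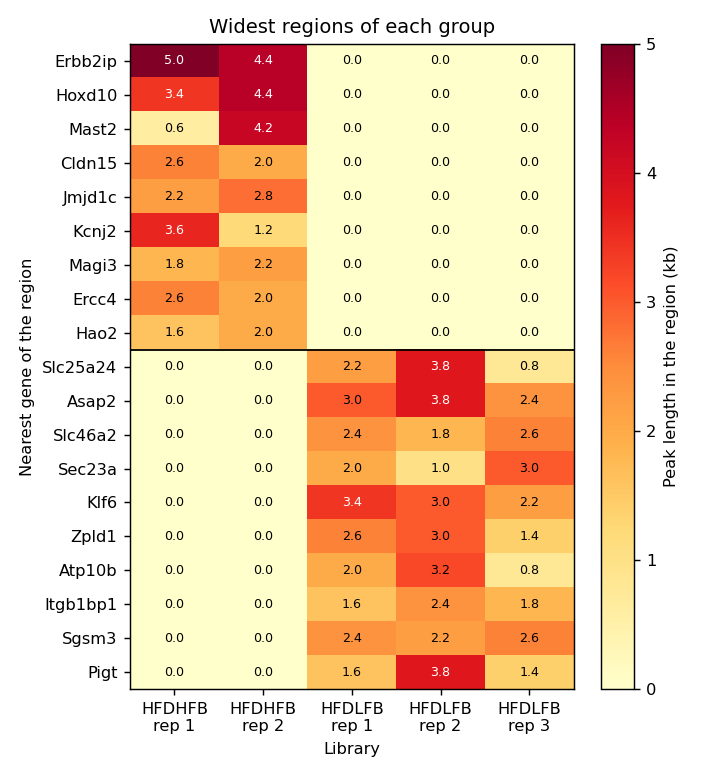
Length of H3K27ac peak (kb, colour and number) in each of the 5 libraries at 9 of the 10 widest HFDHFB only regions (above the line) and the 10 widest HFDLFB only regions (below it), named by the nearest gene. Lengths vary between libraries of one group, as at Mast2 (0.6 and 4.2 kb), and are 0 in the other group because the regions were chosen so.

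The nearest genes within 100 kb numbered 473 for HFDHFB only and 399 for HFDLFB only regions, or 2.13% and 1.79% of 22232 protein-coding genes. They shared 21 genes, which is 4.44% of the first list and 5.26% of the second. Of 298 genes on 16 lists of colonic functions, 13 (4.36%) were nearest to an HFDHFB only region and 9 (3.02%) to an HFDLFB only region. The lists were spread thinly, with 0 to 3 members per list and group. No member of the goblet cell, enteroendocrine, AP-1 and ATF, cholesterol and fatty acid synthesis, or glucose and insulin lists was among them.

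Barrier and transport genes appeared on both sides. Slc26a3, the chloride and bicarbonate exchanger of surface colonocytes, had an HFDHFB only region of 1400 bp in an intron (chr12:32156201-32157600; 800 and 800 bp of peak). Cldn2, a claudin of leaky epithelia that passes cations and water, had an HFDLFB only region 5.97 kb upstream (chrX:136328201-136330600) with 1600, 1000 and 2200 bp. Cldn15, above, was HFDHFB only. The nearest peak of the other group lay 800 bp from the Slc26a3 region, 600 bp from that of Cldn2 and 2400 bp from that of Cldn15. The ETS factor gene Ehf, expressed in epithelia, had an HFDHFB only region of 800 bp at 44.6 kb upstream.

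Genes of lipid, bile acid and xenobiotic metabolism were also near regions of both kinds. Pparg, a nuclear receptor of lipid metabolism that is high in colonocytes, had regions of both kinds: one HFDHFB only of 2400 bp (chr6:115369601-115372000; 1200 and 2400 bp of peak) and one HFDLFB only of 3600 bp (chr6:115331601-115335200; 1600, 1800 and 1600 bp), in introns. The Pparg region of HFDLFB had no peak in any of the other 12 male libraries, and the nearest HFDHFB peak lay 600 bp away. HFDHFB only regions lay near Bdh1 (a ketone body enzyme, 29.0 kb), Cyp3a13 (a cytochrome P450, 8.95 kb) and Abcc3 (an exporter of bile salts and conjugates, 27.5 kb). The region near Bdh1 had a peak in all 12 other male libraries. Nr1h4, the bile acid receptor FXR, had an HFDLFB only region 12.4 kb upstream of the nearest TSS (chr10:88980601-88983000; 1800, 2000 and 600 bp).

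For Wnt signalling, which maintains colonic stem cells, Znrf3 had an HFDHFB only region over one of its annotated starts (0.042 kb, 1200 and 2400 bp of peak), and Met, the receptor of hepatocyte growth factor, one at 37.0 kb. Znrf3 is a ubiquitin ligase that removes Wnt receptors. Tcf7l2, the transcription factor that carries the Wnt signal, had an HFDLFB only region at one of its starts (chr19:55971001-55974000; 2200, 600 and 1400 bp). Both genes also had a peak over another start in all 5 libraries, so the one-group regions do not speak for these genes' promoters as a whole. Among genes of the response to microbes, Tlr2 (a receptor for bacterial lipoproteins) was near an HFDHFB only region, whereas Duox2 (a hydrogen peroxide producing oxidase of the apical membrane) and Irf9 (a factor of interferon signalling) were near HFDLFB only regions, at 14.8 and 4.59 kb. The clock repressor gene Cry1 was near an HFDHFB only region at 36.4 kb.

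On the histone acetylation list, Ncor1, a co-repressor that recruits a histone deacetylase, had 2 HFDHFB only regions and 1 HFDLFB only region, in introns. Ncor1 and Pparg thus each had separate regions of opposite presence.

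None of 6 further genes, Fmo1, Fmo2, Scd1, Sulf2, Hnf4a and Atf3, which the study names as genes or as binding factors, had a one-group region. The merged region at the promoter of Scd1, a desaturase of fatty acids (chr19:44481201-44484000), held 1000 and 2200 bp of peak in HFDHFB and 1200, 2400 and 600 bp in HFDLFB, and a peak covered the start itself in both HFDHFB libraries and in 1 of 3 HFDLFB libraries. For Fmo1, a flavin monooxygenase gene, the promoter peak was 0 and 1000 bp in HFDHFB and 1000, 2000 and 0 bp in HFDLFB, so that the groups overlapped. For Sulf2, a sulfatase gene, the region 1.78 kb inside the gene (chr2:165976801-165981200) had 0 and 1000 bp in HFDHFB and 1400, 4400 and 1400 bp in HFDLFB, without overlap. It was the only one of 9 Sulf2 regions to separate the groups. The region 7.78 kb inside the gene, for example, had 1600 and 4000 bp in HFDHFB and 3400, 3200 and 3200 bp in HFDLFB. All 3 regions of Hnf4a and 5 of 7 of Atf3 were present in all 5 libraries.

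The study designed ChIP-PCR primers for 7 loci of changed H3K27ac, named gain and loss, and each pair matched mm9 once. HNF4α binding was what the study assessed by ChIP-PCR at such loci. The loci were picked on these libraries, so their H3K27ac peaks are no independent evidence. The 3 loss loci are given here. The loss1 amplicon (chr2:59555943-59556168, nearest to Tanc1) overlapped a peak in 2 of 3 HFDLFB libraries, and loss2 and loss3 overlapped one in 1 each. No HFDHFB library had a peak at a loss locus, and no HNF4α list of long-term diet males had one there. The primers of the loss1 pair show the site.
loss1 forward: gaagtacctgccattggtgat
loss1 reverse: tcccaaggatagagctatgt

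At the 26804 regions with a peak in every library, the length of peak was compared, as the lists hold no height. No region was wider in either group by limma with Benjamini-Hochberg adjustment (0% and 0% of regions past an adjusted p of 0.05, smallest adjusted p = 0.227), and 1257 had an unadjusted p below 0.05. Every HFDHFB library was wider than every HFDLFB library at 1905 regions (7.11%), and the reverse held at 1896 (7.07%). The smallest p belonged to a region 6.41 kb from the start of Skp2, a cell cycle ubiquitin ligase (chr15:9060801-9066800). Its peak length was 1000 and 1000 bp in HFDHFB and 4400, 4400 and 5000 bp in HFDLFB, a log2 difference of −2.18 ± 0.24 (SE; limma adjusted p = 0.227). The regions nearest to Dgkd, Larp4b, Pan3 and Arhgef2 followed in that direction. In the other direction, the region nearest to Cdc27, a subunit of the anaphase promoting complex, had 5200 and 6000 bp in HFDHFB and 2400, 2400 and 2600 bp in HFDLFB (limma adjusted p = 0.955), followed by those nearest to Ddx41, Slc18a1, Dnajc5 and Casc5. Without HFDHFB replicate 2, 4 regions passed, all narrower in the remaining HFDHFB library, which was assumed to vary like the others. They lay nearest to Hoxb7, Osr2, B4galnt1 and Cttnbp2, and in each of the 4 the omitted replicate was within 400 bp of an HFDLFB library. At Hoxb7 the lengths were 6200 and 20800 bp in HFDHFB and 20600, 19800 and 20000 bp in HFDLFB.

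The one-group regions were then sought in mice that had not entered their choice. In low-fat fed recipients, HFDHFB only regions had a peak in 26.6%, 18.4% and 22.6% of cases in the 3 LFDHFB libraries and in 32.1%, 27.4% and 14.4% in the 3 LFDLFB libraries. The means, 22.5 ± 4.08% and 24.7 ± 9.18% (SD, n = 3 each), differed by less than the spread of the LFDLFB libraries. HFDLFB only regions had a peak in 32.1%, 30.8% and 31.5% in LFDHFB and in 49.9%, 43.7% and 29.8% in LFDLFB, and the groups overlapped through LFDLFB replicate 3. That library had the fewest peaks of these 6 (39684) and the lowest share of all merged regions (49.2%). Over all merged regions the means were 52.8 ± 1.33% and 54.9 ± 5.04% (SD, n = 3 each).

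Few regions repeated their donor pattern on the low-fat diet. A peak in all 3 LFDHFB and no LFDLFB library was held by 2 HFDHFB only regions (0.347%, against 0.221% of all merged regions), nearest to Lilra5 and Zfp143. A peak in all 3 LFDLFB and no LFDHFB library was held by 5 HFDLFB only regions (1.07%, against 0.416% of all). These were nearest to Stk17b, a kinase gene, Qsox1, which encodes a sulfhydryl oxidase, Hipk2, Pvrl1 and Cldn2. At the Cldn2 region all 6 long-term males had a peak too.

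HFDLFB only regions were found more often in every other library. In long-term males, 45.8 ± 7.36% had a peak on the HFD and 43.0 ± 2.16% on the LFD, against 28.6 ± 6.51% and 27.4 ± 6.52% of HFDHFB only regions (SD, n = 3 each). The share of HFDHFB only regions was the lower one in each of the 12 libraries, with differences of −19.5 to −5.56 percentage points. No peak in any of the 12 was found for 124 HFDHFB only regions (21.5%, 18.2 to 25.1%) and 30 HFDLFB only regions (6.42%, 4.38 to 9.04%), against 17.7% of all merged regions. The number of libraries that defined each set, 2 and 3, differs between them, and its part in this was not tested.

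**Figure D4:**
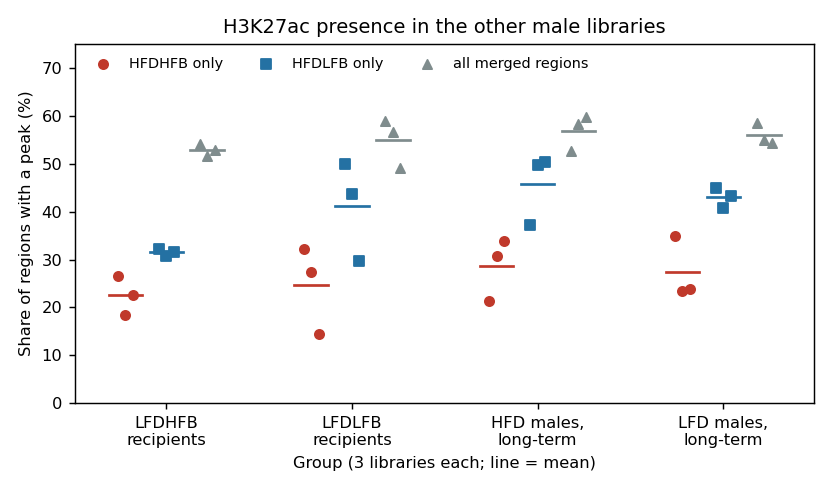
Share of HFDHFB only regions (circles), HFDLFB only regions (squares) and all merged regions (triangles) with an H3K27ac peak in each of the 12 other male libraries, with the mean of 3 libraries as a line. HFDHFB only regions sit between 14.4% and 34.9%, below HFDLFB only regions in every library.

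RNA-seq of colon cells of recipients (3 libraries per group, 39904191 to 45204313 counted reads in the high-fat fed groups) was used for the expression of the nearest genes. Of 851 nearest genes, 819 were matched to the count table. RNA was taken from cells scraped from the colon, not from the epithelium used for ChIP-seq, and the labels do not tie RNA and ChIP libraries to the same mice. No nearest gene passed an adjusted p of 0.05 by edgeR, 0 of 422 tested for HFDHFB only and 0 of 359 for HFDLFB only regions, as did none of the 15893 genes tested (0% higher and 0% lower). At an unadjusted p below 0.05 there were 27, 25 and 1441. DESeq2 called 80 of the 25494 genes in the count table. Of the 454 matched genes nearest to HFDHFB only regions it called 2, and of the 385 nearest to HFDLFB only regions 0. A count of 2 is too small to set these shares apart.

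Those 2 genes, named here after their values were seen, were Stmn1 and Serpinb6b. Stmn1, which encodes the microtubule regulator stathmin, had 32.8, 40.7 and 36.0 CPM (reads scaled to the library's total) in HFDHFB and 18.4, 22.3 and 24.5 CPM in HFDLFB, so that all HFDHFB libraries were higher (edgeR log2 fold change 0.74 ± 0.14 SE, adjusted p = 0.495). DESeq2 gave an adjusted p of 0.00525. Serpinb6b, a serine protease inhibitor gene, had 2.46, 3.59 and 5.25 CPM in HFDHFB and 15.2, 20.1 and 5.26 CPM in HFDLFB (edgeR log2 fold change −1.85 ± 0.51 SE, adjusted p = 0.495). For DESeq2 the adjusted p was 0.0420. Serpinb6b had 2 HFDHFB only regions, 0.319 and 27.1 kb from the start, and lower values of RNA in that group. Stmn1 had a 600 bp HFDHFB only region at 12.8 kb and higher values. A link between region and RNA was not tested.

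The log2 fold changes of the nearest genes centred at or just below 0. Of the genes nearest to HFDHFB only regions, 35.8% (151 of 422) had a positive log2 fold change, with a median of −0.08, and of those nearest to HFDLFB only regions 49.0% (176 of 359), with a median of −0.01. Over all genes tested the values were 49.7% and −0.00. The medians with each library left out ran from −0.16 to −0.04 for HFDHFB only and from −0.06 to 0.01 for HFDLFB only.

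**Figure D5:**
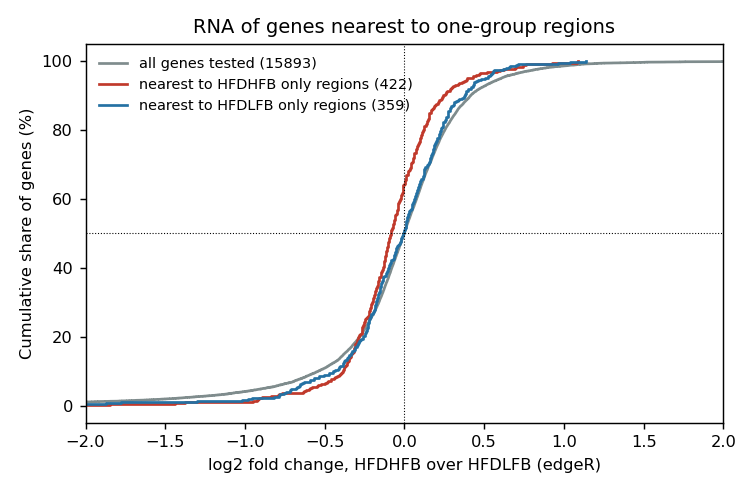
Cumulative share of genes (%) by log2 fold change of RNA, HFDHFB over HFDLFB (edgeR), for genes nearest to HFDHFB only regions (422), to HFDLFB only regions (359) and all genes tested (15893). The curve of the first lies to the left of the others around 0, with a median of −0.08, and the axis is limited to ±2.

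Function genes with a one-group region were then read one by one. Barrier and transport genes came first. Slc26a3 had mean levels of 2030 CPM in HFDHFB and 2596 CPM in HFDLFB, a log2 fold change of −0.36 ± 0.47 (SE; edgeR adjusted p = 0.857). Cldn15 had 95.8, 139 and 138 CPM in HFDHFB and 89.4, 94.4 and 77.2 CPM in HFDLFB. All HFDHFB libraries were thus above all HFDLFB libraries, by 0.52 ± 0.28 on the log2 scale (SE; edgeR adjusted p = 0.601). Cldn2 had 92.7, 104 and 61.0 CPM against 40.4, 73.8 and 99.3 CPM, and the groups overlapped (edgeR adjusted p = 0.843). For Pparg, Nr1h4 and Duox2 the log2 fold changes were 0.12 ± 0.24, −0.25 ± 0.20 and −0.63 ± 0.42 (SE; edgeR adjusted p = 0.911, 0.749 and 0.692).

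Scd1 and the flavin monooxygenase genes had the largest fold changes among those 6 genes, at loci with no one-group region. The log2 fold change was −2.68 ± 1.08 for Scd1, −2.51 ± 0.49 for Fmo2 and −1.18 ± 0.35 for Fmo1 (SE; edgeR adjusted p = 0.506, 0.495 and 0.495). The study itself reported lower expression of Scd1, Fmo1, Fmo2 and Sulf2 in HFDHFB, by p-values of DESeq2 rather than edgeR. Adipocyte and mesothelial markers were lower in HFDHFB by the median, though their sums overlapped between the groups. Whether they follow Scd1, Fmo1 and Fmo2 from library to library was not tested. None of the 8 adipocyte and 7 tested mesothelial markers passed the edgeR threshold, with median log2 fold changes of −3.08 and −2.37. The 8 adipocyte markers summed to 37.4, 406 and 201 CPM in HFDHFB and to 1188, 2898 and 337 CPM in HFDLFB. The 7 tested mesothelial markers summed to 49.7, 54.0 and 102 CPM in HFDHFB and to 405, 505 and 97.5 CPM in HFDLFB. Smooth muscle markers summed to 2003 to 7147 CPM and 1112 to 4972 CPM, and epithelial markers to 12500.2 to 14789 CPM and 10024 to 13070 CPM. The part of these other tissues in the RNA values was not tested, and in bulk RNA fewer cells of a type and less RNA per cell cannot be told apart.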

How the data were processed

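Per the file headers and methods, the authors aligned ChIP-seq reads to mm9 (the submitters' notes name Bowtie 0.12.8 and Picard 1.110), kept unique, de-duplicated reads and called peaks with SICER for histone marks in windows of 200 bp and with HOMER for HNF4α, 1 deposited list per library. The lists hold start and end only (unit: other), with no score or count, so the DiffBind comparison of the methods could not be run, and presence and length of peaks were used. For RNA-seq the authors deposited raw counts per gene (STAR 2.5, featureCounts 1.5.0-p1, mm9), not normalized.

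Peaks overlapping by at least 1 bp over the 5 lists were merged. TSS and gene names were those of protein-coding transcripts of GENCODE vM1, and sequences those of NCBIM37 (mm9). Distances run from a region's centre, and promoters span 1000 bp before to 100 bp after a TSS. Intervals of shares are exact binomial ones at 95% and reflect counting error alone. RNA counts were tested with edgeR 4.0.16 (TMM, filterByExpr, quasi-likelihood F-test, 4 recipient groups in 1 fit), the SE being the fold change over the root of F, and peak lengths with limma 3.58.1 (trend, log2 bp, libraries centred on their median), with Benjamini-Hochberg adjustment at 0.05 over all features. R 4.3.3, DESeq2 1.42.0, matplotlib 3.10.9, pysam 0.24.0, scipy 1.17.1, numpy 2.4.6 and Python 3.11.15 were also used, and the fits were tested on simulated data. Replicates are separate samples per the labels, which do not say whether they are separate mice, so p-values measure the spread between these samples.

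The groups, regions and gene lists were chosen with earlier results of these data known. Genes were named as nearest genes of the 10 widest regions per group, members of the function lists next to a one-group region, nearest genes past the RNA threshold, genes with at least 3 such regions (none), the 5 smallest p per direction of the length fit, 6 genes or factors the study names, cell type markers, and the regions whose sequences are shown. The printed sequences are those of the up to 4 widest regions per group with HNF4α in at least 2 lists and a core, limited after their values were seen to cores within 20 bp of a peak centre. Some items that these rules select are not reported here. Female samples and input libraries were not used here. The alternatives tried are given in the closing section.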

Additional observations from a re-analysis of the deposited data

Results flagged for a closer look

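A total of 3 HFDLFB only regions had the opposite donor pattern on the low-fat diet, with a peak in all 3 HFDLFB and no HFDHFB library but in all 3 LFDHFB and no LFDLFB library. Every library thus went one way in high-fat fed and the other way in low-fat fed recipients, and the difference was not tested. The regions lay nearest to Trp53inp1 (chr4:11050001-11052200; 1200, 600 and 2200 bp of peak in HFDLFB), Trhr2 (chr8:124878401-124881000; 1600, 1400 and 1400 bp) and Apeh (chr9:108027801-108029800; 2000, 1200 and 1000 bp). They are 0.642% of 467 HFDLFB only regions, against 0.221% of all merged regions with that pattern on the low-fat diet. No HFDHFB only region had the opposite pattern.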

How the results depend on the processing

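Counts of one-group regions depend on how many libraries define them. With peaks within 1000 bp merged they were 445 and 383, and with peaks of at least 600 bp only 571 and 468, but a peak in 2 of 3 HFDLFB libraries gave 2478 HFDLFB only regions. With each library left out they ran from 918 to 6225 for HFDHFB only and from 903 to 2743 for HFDLFB only, since fewer libraries were required. Leaving out HFDHFB replicate 1 gave 6225 and 903, HFDHFB replicate 2 gave 2928 and 2743, and HFDLFB replicates 1, 2 and 3 gave 1027 and 1050, 918 and 1436, and 1118 and 1062. The difference in peaks per library ran from −5572 to 3815 and that in covered genome from −13.4 to 12.1 Mb, with the sign turned without HFDHFB replicate 1 (3815 peaks, 12.1 Mb) and, for the covered genome, without HFDLFB replicate 1 (0.811 Mb) or 3 (0.523 Mb).

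Shares are given for HFDHFB only, HFDLFB only and all merged regions, in that order. Within 5 kb of the gene starts of the RNA-seq table lay 8.85%, 17.1% and 24.6%, and within 1 kb of a TSS 2.95%, 11.8% and 14.7%. H3K4me1 in at least 3 of 6 lists was held by 85.1%, 93.6% and 86.3%, and HNF4α in at least 1 of 4 lists by 26.7%, 28.5% and 40.7%. In whole regions the cores of HNF4α were in 8.51%, 7.92% and 11.8%, of AP-1 in 29.9%, 33.4% and 40.0%, of ATF/CRE in 1.39%, 1.93% and 2.90%, of CDX2 in 18.4%, 16.9% and 19.8%, and of KLF in 17.2%, 19.1% and 24.2%. In the central 600 bp they were 3.30%, 3.64% and 3.22% (HNF4α), 13.4%, 13.3% and 12.6% (AP-1), 1.22%, 0.428% and 0.745% (ATF/CRE), 7.29%, 6.85% and 5.42% (CDX2), and 9.20%, 6.85% and 6.83% (KLF), since fewer bases were searched. The order of the 3 sets changed between these windows for each core, and the order of HFDHFB only and HFDLFB only for HNF4α, AP-1, ATF/CRE and KLF.

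For peak length, 0 regions passed under every alternative except without HFDHFB replicate 2 (4 regions, leaving out each library gave 0 to 4). For nearest genes 0 passed under every alternative except DESeq2 (2, nearest to HFDHFB only regions), and leaving out each library gave 0 to 0. The median log2 fold change of genes nearest to HFDLFB only regions turned positive without HFDHFB replicate 2 (0.0016), without HFDLFB replicate 1 (0.0084) and within 10 kb (0.019), ran from −0.0565 to 0.0084 with each library left out, and the cause was not tested.

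Whether the replicate numbers pair the samples is not known. Correlations of same-numbered RNA libraries' deviations from their group means were −0.59, 0.06 and −0.43, and those of peak length −0.01 and −0.04. With so few libraries per group, the deviations depend on each other, so these correlations cannot settle it. A replicate block left 0 nearest genes and 0 regions past the threshold. The depth of the peak lists is unknown, which limits every statement on absence.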

Other observations

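Regions at annotated starts, of which a gene can have several, are described here by genes chosen after their values were seen. Among the 17 HFDHFB only regions within 1 kb of a TSS were those of Trpv6, an epithelial calcium channel gene (0.103 kb; 2400 and 1400 bp of peak), Lpar1, a receptor of lysophosphatidic acid (0.674 kb; 1400 and 1400 bp), and Hoxa3 (0.047 kb; 600 and 1200 bp). Among the 55 HFDLFB only ones were those of Cxcl10, an interferon-induced chemokine (0.286 kb; 1600, 1800 and 1000 bp), Wnt5b, a Wnt ligand (0.097 kb; 1800, 1000 and 1600 bp), and Slc27a2, a fatty acid transporter and very long-chain acyl-CoA synthetase (0.565 kb; 1600, 1800 and 2000 bp). The Slc27a2 region had an HNF4α peak in all 4 lists of long-term males and the Cxcl10 region in 2. The Wnt5b region had no peak in the 12 other male libraries, whereas the Cxcl10 region had one in all 6 long-term males.

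More than 1 region of a kind was found at 20 genes for HFDHFB only and 10 genes for HFDLFB only regions, and none had 3. The first included Mecom and Jarid2, which encode nuclear factors, and Rptor, a subunit of the mTORC1 kinase complex. The second included Nlrc4, an inflammasome gene for bacterial flagellin, Kitl, the ligand of the receptor Kit, and Tkt, transketolase of the pentose phosphate pathway.

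In long-term males, 5 HFDHFB only regions (0.868%) had a peak in all 3 HFD and no LFD library, against 0.303% of all merged regions, and 1 had the reverse. For HFDLFB only regions these numbers were 4 (0.857%) and 0. A peak of the other group lay within 1 kb of 22.7% of HFDHFB only and 20.1% of HFDLFB only regions.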
